A study of Homo sapiens with 18 samples.

Results

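The genes described here are a set of carbonyl-metabolising enzymes: the aldo-keto reductases AKR1C1, AKR1C2, AKR1C3, AKR1B1, AKR1B10 and AKR1A1, and the aldehyde dehydrogenases ALDH1A3 and ALDH3A1. They were taken by name, and every probe set that the array annotation assigns to exactly one of them was read on its own. This gave 13 probe sets of 6 genes among the 54613 probe sets and 19775 genes measured, namely 5 for AKR1C1, 3 for AKR1C2, 2 for ALDH1A3 and 1 each for AKR1C3, AKR1B10 and ALDH3A1. AKR1B1 and AKR1A1 had no such probe set, so no value is given for either, and 1 further probe set that carries both the AKR1C1 and AKR1C2 names was left out. Expression was measured on Affymetrix arrays in 2 established human prostate cancer lines, DU145, derived from a brain metastasis and insensitive to androgen, and CWR22Rv1, derived from a relapsed xenograft. Each line received scramble siRNA as the control, siRNA against Stat3, or siRNAs against both Stat5a and Stat5b (written Stat5a/b), and cells were collected after 48 h. All groups went through lipid transfection with an siRNA, so no group shows the untransfected state, and each line stands for itself alone. There were 3 arrays per group and 18 in total, and the RNA of the triplicates was kept apart. No label says that they came from separate cultures, so p-values measure the spread between these arrays, which may be technical.

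Aldo-keto reductases use NADPH to reduce aldehydes and ketones to alcohols. The AKR1C enzymes act on steroids and prostaglandins: in the prostate AKR1C2 inactivates dihydrotestosterone, AKR1C1 reduces progesterone, and AKR1C3 makes testosterone from androstenedione and reduces prostaglandin D2 and H2. AKR1B10 reduces retinaldehyde and lipid-derived aldehydes, and ALDH1A3 oxidises retinaldehyde the other way, to retinoic acid. ALDH3A1 oxidises aliphatic and aromatic aldehydes. Several of the reductase genes are known targets of NRF2, the transcription factor of the oxidative stress response. Stat3 and Stat5a/b, the proteins targeted by the siRNAs, are transcription factors that wait in the cytoplasm until cytokine receptors activate them.

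The AKR1C genes lie side by side on chromosome 10, and their transcripts are much alike, which bears on how the probe sets are read. Probe sequences were not at hand, so sharing of probes was not checked by sequence for any gene here. To show how close the gene copies are outside the transcripts, the 250 bases before the start of each gene are printed. They run 5′ to 3′ on the gene's own strand, from RefSeq on GRCh38.p14. They are chr10:4963165-4963414 (+) for AKR1C1, chr10:5003858-5004107 (-) for AKR1C2 and chr10:5048531-5048780 (+) for the first of the AKR1C3 starts.
AKR1C1: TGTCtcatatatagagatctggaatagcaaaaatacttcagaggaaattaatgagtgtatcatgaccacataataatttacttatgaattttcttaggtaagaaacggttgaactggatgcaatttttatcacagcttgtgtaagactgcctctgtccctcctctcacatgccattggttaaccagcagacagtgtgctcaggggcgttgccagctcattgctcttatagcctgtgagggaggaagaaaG
AKR1C2: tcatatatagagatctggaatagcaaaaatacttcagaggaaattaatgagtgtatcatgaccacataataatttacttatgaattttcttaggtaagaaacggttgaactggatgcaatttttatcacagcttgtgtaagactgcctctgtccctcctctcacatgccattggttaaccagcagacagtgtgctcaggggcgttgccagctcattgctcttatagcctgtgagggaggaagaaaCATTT
AKR1C3: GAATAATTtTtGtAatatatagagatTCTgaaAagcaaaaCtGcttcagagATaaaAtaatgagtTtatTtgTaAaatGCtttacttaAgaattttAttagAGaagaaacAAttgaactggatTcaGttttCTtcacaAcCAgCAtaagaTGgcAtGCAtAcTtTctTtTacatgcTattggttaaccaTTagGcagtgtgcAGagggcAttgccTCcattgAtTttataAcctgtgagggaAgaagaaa
In AKR1C1 and AKR1C2 the lower-case letters are one run of 245 bases that is the same in both, and the capitals are the 5 bases outside it. In AKR1C3 lower case marks the 185 bases that match AKR1C1 in an alignment of the pair, which is 76.8% of the 241 aligned bases, and capitals mark the other 65. The core of the antioxidant response element bound by NRF2, TGACNNNGC, and the STAT binding core TTCNNNGAA were searched for on both strands. Neither occurred in the 8 promoter windows of the 6 listed genes that had one, those of AKR1C1, AKR1C2, AKR1C3, AKR1B1, AKR1A1 and ALDH1A3. Among 35116 RefSeq promoter windows of the same length, 10.9% held the first and 6.57% the second. At those shares no hit in 8 windows would be usual, and the AKR1C1 and AKR1C2 windows are nearly the same. Sites outside the 250 bases were not searched, so the absence is no result about these genes.

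The deposited values were log2 expression values between 1.54 and 14.3. Array medians lay at 5.15 to 5.20, and arrays of one group correlated at 0.993 to 0.998 over probe sets. The number of arrays limits the precision, and how far a value lies above background is unknown. STAT3 fell to 32.6% of control with Stat3 siRNA in DU145 and to 45.7% in CWR22Rv1. STAT5B fell to 39.1% and 53.4% with Stat5a/b siRNA, whereas STAT5A stood at 81.1% and 78.7% without being called (limma, adjusted p = 0.134 and 0.210). Of the luminal prostate markers, FOLH1 was 3.42 to 4.82 in DU145 and 8.64 to 9.29 in CWR22Rv1, while KLK3 overlapped between the lines, and KRT8 and KRT18 were high in both. Of 12 genes that mark fibroblasts, endothelium, leukocytes or hepatocytes, 10 stayed between 2.80 and 5.76 on all arrays, among them the defining PTPRC, PECAM1 and APOA1. The other two were the hepatocyte gene ALB, at 10.92 to 11.21, and LUM, at 7.21 to 8.29, both in CWR22Rv1 alone and called in none of the siRNA comparisons.

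The siRNA against Stat5a/b was followed by higher AKR1C1 and AKR1C2 in both lines and, in DU145, by higher AKR1B10 and lower ALDH1A3. Of its CWR22Rv1 calls, all but that of AKR1C2 on 209699_x_at depended on single arrays. The siRNA against Stat3 was followed by lower AKR1C2, AKR1C3 and ALDH1A3 in DU145, with calls that depended on single arrays in the unblocked fit. A probe set was called at an adjusted p under 0.05 in a limma fit over all 54613 probe sets and 18 arrays, adjusted by Benjamini-Hochberg over all probe sets within a comparison. For Stat5a/b siRNA 6 of the 13 probe sets were called in DU145, 5 higher and 1 lower, where 15.6% of all probe sets were called, and 4 of 13, all higher, in CWR22Rv1, where 3.10% were called and 1.27% were called higher. With Stat3 siRNA 3 of 13 were called in DU145, all lower, against 9.02% of all probe sets called and 4.69% called lower. In CWR22Rv1 none of the 13 was called by limma with Stat3 siRNA, against 2.00% of all, and 2 had an unadjusted p under 0.05. The share of all probe sets under that unadjusted threshold is not given. Counts at it, here and below, are therefore not read as a result. The 4 AKR1C1 and AKR1C2 probe sets in these counts target near-identical transcripts and are not independent of one another. Both siRNAs of a line were set against the same 3 scramble arrays.

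**Figure D1:**
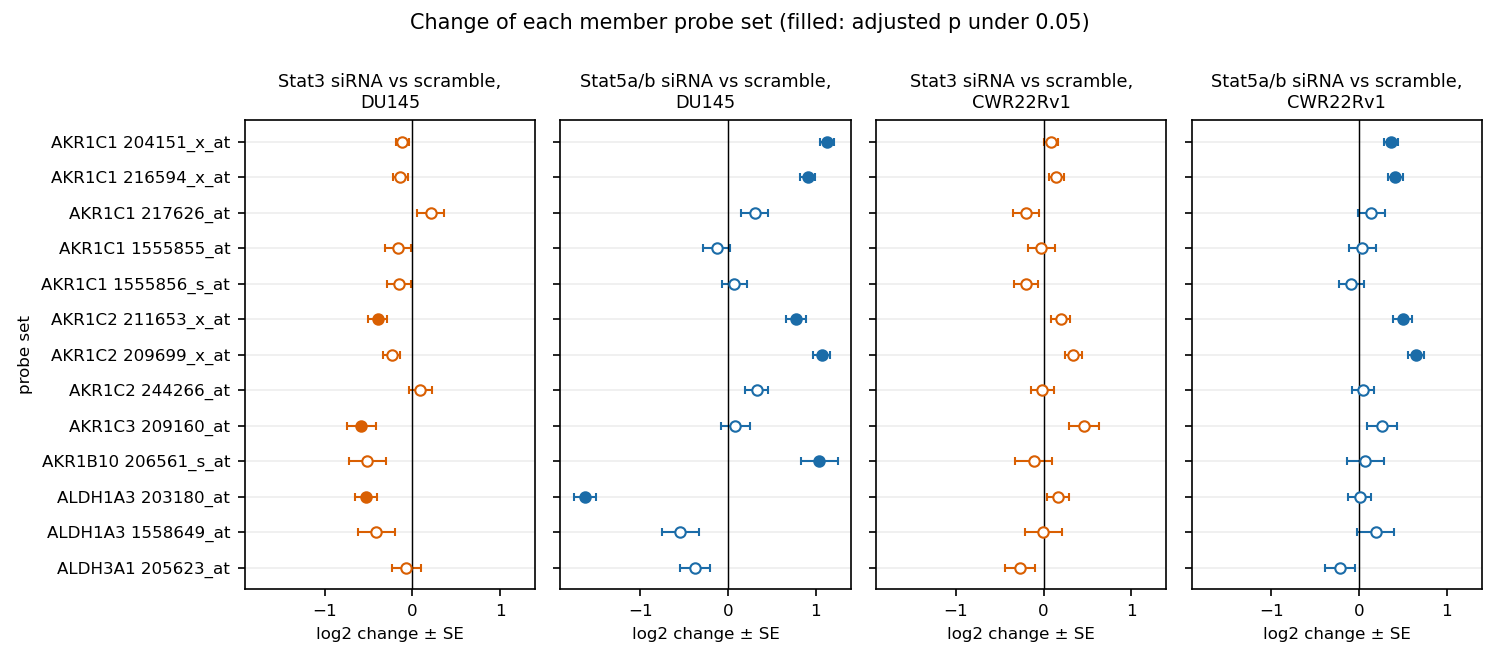
Log2 change against the scramble arrays of the same line for the 13 probe sets, with the standard error of the fit as bars, in 4 panels for the siRNA and line. Filled points are called (adjusted p under 0.05): 3 for Stat3 and 6 for Stat5a/b siRNA in DU145, 0 and 4 in CWR22Rv1.

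The median log2 change of the 13 probe sets in DU145 was -0.16 after Stat3 knockdown and 0.30 after Stat5a/b knockdown, beside 0.0041 and 0.0022 over all probe sets. In CWR22Rv1 the medians were -0.0029 and 0.14, beside -0.0020 and 0.011. The 3 siRNA arrays lay all above or all below the 3 scramble arrays for 2 of the 13 with Stat3 siRNA in DU145 and for 7 of them with Stat5a/b siRNA, against 20.8% and 27.5% of all probe sets. In CWR22Rv1 this held for 7 and 5 of the 13, against 26.0% and 25.7%.

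AKR1C1, the progesterone-reducing enzyme, was read by a pair of bright probe sets, 204151_x_at and 216594_x_at. The x in these names marks probes shared with related transcripts, so either value may hold AKR1C2 or another copy. On 204151_x_at the DU145 scramble arrays had log2 values of 7.81, 7.85 and 7.59, the Stat3 siRNA arrays 7.57, 7.67 and 7.68, and the Stat5a/b siRNA arrays 8.77, 8.89 and 8.97. The Stat5a/b siRNA arrays stood above all other DU145 arrays, whereas Stat3 siRNA and scramble overlapped. The rise with Stat5a/b siRNA was 1.13 ± 0.077 on the log2 scale (SE, 3 arrays against 3), to 218% of control (limma, adjusted p = 6.2e-08). Stat3 siRNA gave a log2 change of -0.11 (adjusted p = 0.461). In a bulk culture more AKR1C1 RNA per cell and more cells that express it cannot be told apart, here and for every other gene.

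The second AKR1C1 probe set, 216594_x_at, gave 7.14, 7.39 and 7.09 on the DU145 scramble arrays, 6.97, 7.10 and 7.13 with Stat3 siRNA and 8.21, 8.10 and 8.05 with Stat5a/b siRNA. The order of the groups was that of the other AKR1C1 probe set, with Stat5a/b siRNA again above every other DU145 array. The rise was 0.91 ± 0.086 (log2), to 188% of control (adjusted p = 2.3e-06), and the change with Stat3 siRNA was -0.14 (adjusted p = 0.398).

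AKR1C2, which inactivates dihydrotestosterone, showed the same rise on both of its bright probe sets. On 209699_x_at the DU145 values were 6.81, 7.04 and 6.68 with scramble, 6.50, 6.72 and 6.60 with Stat3 siRNA, and 7.93, 7.80 and 8.02 with Stat5a/b siRNA. On 211653_x_at they were 7.46, 7.30 and 6.92, then 6.95, 6.75 and 6.79, then 7.91, 8.05 and 8.05 in the same order. On both, all Stat5a/b siRNA arrays lay above all others of the line. The log2 rises with Stat5a/b siRNA were 1.07 ± 0.094 on 209699_x_at (211% of control, adjusted p = 9.5e-07) and 0.78 ± 0.11 on 211653_x_at (172%, adjusted p = 1.2e-04).

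With Stat3 siRNA in DU145 both bright AKR1C2 probe sets had lower means, and 1 of them was called. On 211653_x_at AKR1C2 fell by 0.39 ± 0.11 on the log2 scale, to 76.1% of control (adjusted p = 0.0320), although 1 scramble array, at 6.92, lay within the range of the Stat3 siRNA arrays. This call was lost on leaving out scramble replicate 1 or 2, or Stat3 siRNA replicate 2 or 3 (adjusted p = 0.161, 0.107, 0.103 and 0.0900), and in a fit of the DU145 arrays alone (adjusted p = 0.165). On 209699_x_at the log2 change was -0.23 (SE 0.094) and was not called (adjusted p = 0.149). The difference between the probe sets was not tested.

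In CWR22Rv1 the same 4 probe sets rose with Stat5a/b siRNA, by less than 1 log2 unit. AKR1C1 on 204151_x_at read 7.99, 8.03 and 7.99 with scramble, 8.14, 8.04 and 8.09 with Stat3 siRNA, and 8.31, 8.41 and 8.38 with Stat5a/b siRNA. On 216594_x_at it read 7.41, 7.46 and 7.33, then 7.48, 7.57 and 7.58, then 7.72, 7.80 and 7.92. The groups stood in steps, scramble lowest and Stat5a/b siRNA highest, with no overlap on either probe set. AKR1C1 rose with Stat5a/b siRNA by 0.36 ± 0.077 on 204151_x_at (log2, 128% of control, adjusted p = 0.0134) and by 0.41 ± 0.086 on 216594_x_at (133%, adjusted p = 0.0120). The corresponding log2 changes with Stat3 siRNA were 0.09 and 0.14 (adjusted p = 0.756 and 0.570).

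AKR1C2 in CWR22Rv1 read 7.21, 7.11 and 7.09 with scramble, 7.52, 7.47 and 7.44 with Stat3 siRNA, and 7.73, 7.91 and 7.71 with Stat5a/b siRNA on 209699_x_at. On 211653_x_at it read 7.20, 7.26 and 7.17, then 7.48, 7.39 and 7.35, then 7.83, 7.67 and 7.63. Here too the groups did not overlap, and both siRNAs stood above scramble. With Stat5a/b siRNA AKR1C2 rose by 0.65 ± 0.094 on 209699_x_at (log2, 156% of control, adjusted p = 7.7e-04) and by 0.50 ± 0.11 on 211653_x_at (141%, adjusted p = 0.0173). The log2 changes with Stat3 siRNA were 0.34 (adjusted p = 0.0802) and 0.19 (adjusted p = 0.532), of which the first was called in a fit of the CWR22Rv1 arrays alone (adjusted p = 0.0264).

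Single arrays carried most of the CWR22Rv1 calls. The rise of AKR1C2 on 209699_x_at was called whichever array was left out. That of AKR1C1 on 204151_x_at was lost without scramble replicate 1 or 3, or Stat5a/b siRNA replicate 2 or 3 (adjusted p = 0.0593, 0.0631, 0.0730 and 0.0575), and on 216594_x_at without scramble replicate 3 or Stat5a/b siRNA replicate 3 (0.0731 and 0.0735). That of AKR1C2 on 211653_x_at was lost without scramble replicate 1 or 3, or Stat5a/b siRNA replicate 1 or 2 (0.0682, 0.0808, 0.0882 and 0.0544). The direction stayed upward in all of these.

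The remaining 3 probe sets of AKR1C1 (217626_at, 1555855_at and 1555856_s_at) and the third of AKR1C2 (244266_at) had group means between 3.02 and 5.12, and none was called in any siRNA comparison. On the AKR1C2 one, 244266_at, the DU145 means were 3.02 with scramble and 3.35 with Stat5a/b siRNA. The rise of AKR1C1 and AKR1C2 was therefore seen on the shared-probe sets and not on these dim ones.

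**Figure D2:**
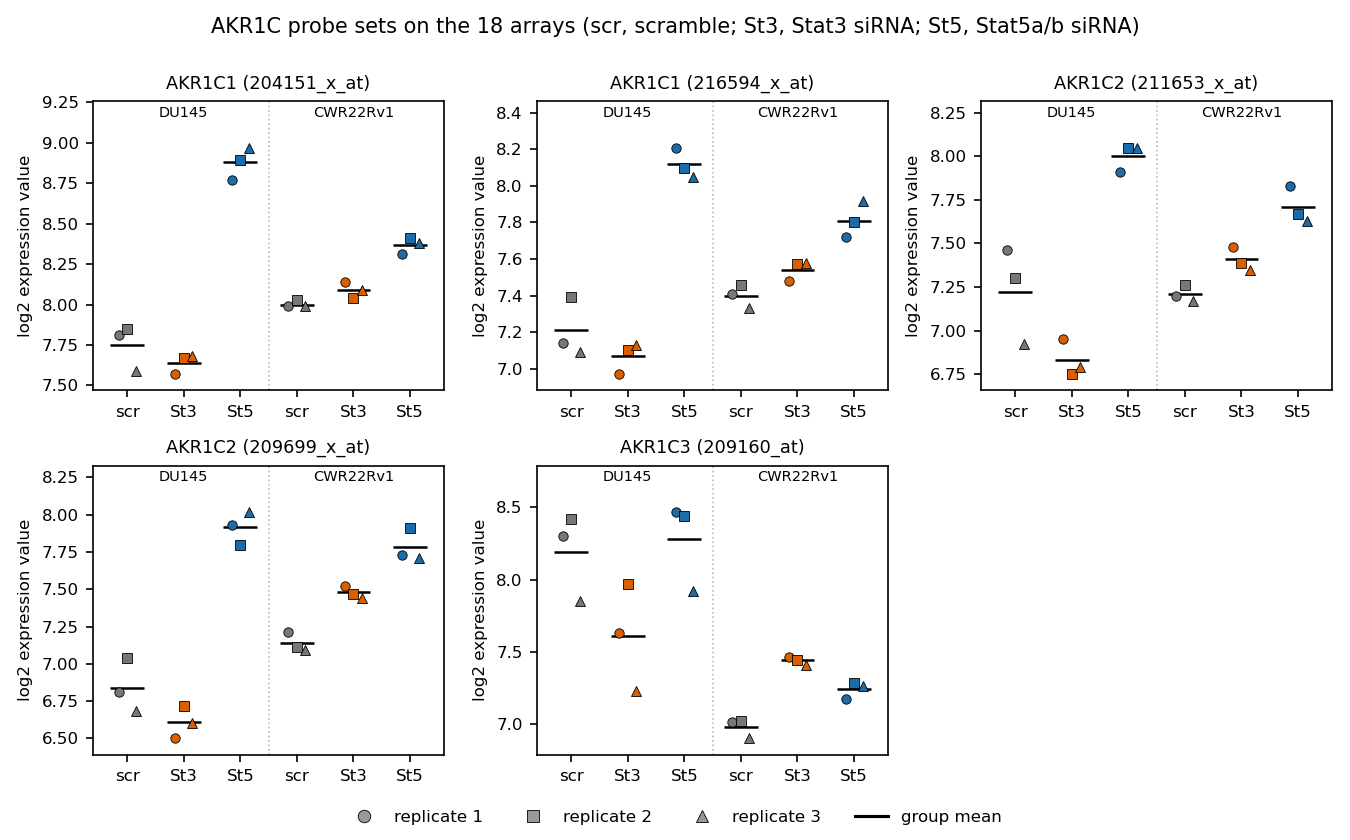
Log2 expression value of the bright AKR1C probe sets on each of the 18 arrays, by line and siRNA, with symbols for the replicate number and a bar for the group mean. The Stat5a/b siRNA arrays are the highest of their line in all 4 AKR1C1 and AKR1C2 panels, while AKR1C3 is highest with Stat3 siRNA among the CWR22Rv1 groups and its DU145 array numbered 3 is the lowest of each group.

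AKR1C3, which makes testosterone and prostaglandin F2-type products, did not share the Stat5a/b pattern. On 209160_at the DU145 values were 8.30, 8.42 and 7.85 with scramble, 7.63, 7.97 and 7.23 with Stat3 siRNA, and 8.47, 8.44 and 7.92 with Stat5a/b siRNA. Scramble and Stat5a/b siRNA covered the same range, and the array numbered 3 was the lowest of each group. AKR1C3 fell by 0.58 ± 0.17 on the log2 scale with Stat3 siRNA, to 66.9% of control (adjusted p = 0.0440), with 1 array of each group inside the range of the other. The log2 change with Stat5a/b siRNA was 0.09 (adjusted p = 0.797).

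Each Stat3 siRNA array of DU145 lay below the scramble array of the same number, and once the replicate number was blocked the fall of AKR1C3 had an adjusted p of 3.7e-04. In the fit without the block the call was lost without scramble replicate 1 or 2, or Stat3 siRNA replicate 1 or 3 (adjusted p = 0.140, 0.172, 0.0852 and 0.195), after a further quantile or cyclic loess normalisation (0.0612 and 0.0610) and in a fit of the DU145 arrays alone (0.204). In CWR22Rv1 AKR1C3 read 7.01, 7.02 and 6.90 with scramble, 7.46, 7.44 and 7.41 with Stat3 siRNA, and 7.17, 7.28 and 7.26 with Stat5a/b siRNA. All Stat3 siRNA arrays lay above all Stat5a/b siRNA arrays, and these above all scramble arrays. The log2 changes were 0.46 ± 0.17 with Stat3 siRNA (adjusted p = 0.236) and 0.26 ± 0.17 with Stat5a/b siRNA (adjusted p = 0.597), neither called. That standard error is set largely by the wider DU145 spread (SD of AKR1C3 0.299 to 0.370 in the DU145 groups, 0.0250 to 0.0666 in the CWR22Rv1 groups), and a fit of the CWR22Rv1 arrays alone called both (adjusted p = 0.00376 and 0.0336). With the replicate block the first was called (0.00727). No label states a pairing by replicate number, and whether the CWR22Rv1 arrays were paired is not settled.

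AKR1B10, the retinaldehyde reductase, rose with Stat5a/b siRNA in DU145 and had low values in CWR22Rv1. In DU145 its probe set 206561_s_at read 5.93, 5.67 and 5.71 with scramble, 5.16, 5.05 and 5.55 with Stat3 siRNA, and 7.08, 6.85 and 6.50 with Stat5a/b siRNA. The groups did not overlap, with Stat3 siRNA lowest and Stat5a/b siRNA highest. AKR1B10 rose by 1.04 ± 0.21 on the log2 scale with Stat5a/b siRNA, to 206% of control (adjusted p = 0.00241). The log2 change with Stat3 siRNA was -0.52 ± 0.21 and was not called (adjusted p = 0.155). The scramble and Stat3 siRNA values of DU145 lay in or just above the 2.80 to 5.76 of the genes of absent cell types. In CWR22Rv1 the values were 3.66, 4.09 and 3.16 with scramble, 3.25, 3.84 and 3.47 with Stat3 siRNA, and 3.66, 3.58 and 3.87 with Stat5a/b siRNA, overlapping throughout.

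ALDH1A3, the retinaldehyde dehydrogenase that forms retinoic acid, moved opposite to AKR1B10 with Stat5a/b siRNA in DU145. On 203180_at it read 11.17, 11.05 and 10.98 with scramble, 10.68, 10.66 and 10.27 with Stat3 siRNA, and 9.36, 9.51 and 9.43 with Stat5a/b siRNA. The groups did not overlap, scramble being highest and Stat5a/b siRNA lowest. ALDH1A3 fell by 1.63 ± 0.13 on the log2 scale with Stat5a/b siRNA, to 32.2% of control (adjusted p = 4.2e-07), and this was called in every alternative tried. With Stat3 siRNA it fell by 0.53 ± 0.13, to 69.4% (adjusted p = 0.0176). That call was lost without scramble replicate 1 or Stat3 siRNA replicate 3 (adjusted p = 0.0734 and 0.0907), and without the DU145 arrays numbered 3 (0.0981).

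The second ALDH1A3 probe set, 1558649_at, was dimmer and less steady. It read 5.40, 4.35 and 5.13 with scramble in DU145, 4.38, 4.67 and 4.60 with Stat3 siRNA, and 4.46, 4.73 and 4.05 with Stat5a/b siRNA. The scramble array at 4.35 lay below all Stat3 siRNA arrays and within the range of the Stat5a/b siRNA arrays, and neither change was called (log2 change -0.41 and -0.54, adjusted p = 0.285 and 0.0935). In CWR22Rv1 ALDH1A3 lay between 3.68 and 4.26 on 203180_at and between 3.08 and 3.59 on 1558649_at over all 9 arrays, with no call.

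ALDH3A1, the dehydrogenase of aliphatic and aromatic aldehydes, was called in no siRNA comparison. On 205623_at it read 5.83, 5.82 and 5.64 with scramble in DU145, 6.03, 5.56 and 5.50 with Stat3 siRNA, and 5.31, 5.50 and 5.35 with Stat5a/b siRNA. All Stat5a/b siRNA arrays lay below all scramble arrays, at 76.9% of control, a log2 change of -0.38 that missed the threshold (adjusted p = 0.142). In CWR22Rv1 it read 5.40, 5.35 and 5.15 with scramble, 5.12, 5.03 and 4.94 with Stat3 siRNA, and 5.21, 4.61 and 5.41 with Stat5a/b siRNA. The Stat3 siRNA arrays were all below scramble (log2 change -0.27, adjusted p = 0.575), while 1 Stat5a/b siRNA array stood well below the other two. All these CWR22Rv1 values lay within the 2.80 to 5.76 of the genes of absent cell types.

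**Figure D3:**
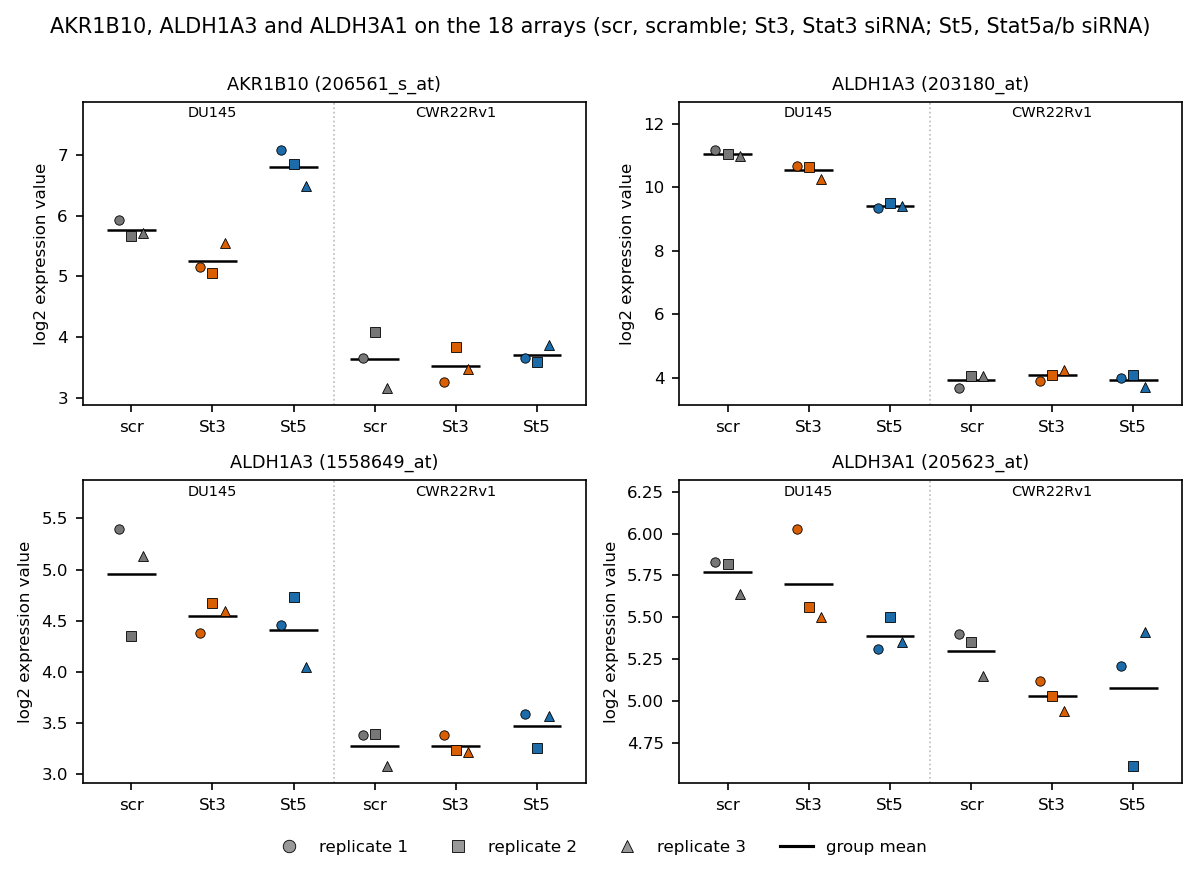
Log2 expression value of AKR1B10, both ALDH1A3 probe sets and ALDH3A1 on each of the 18 arrays, by line and siRNA, with symbols for the replicate number and a bar for the group mean; the vertical scales differ between panels. In DU145 AKR1B10 is highest and ALDH1A3 on 203180_at lowest with Stat5a/b siRNA, and in CWR22Rv1 ALDH1A3 stays between 3.08 and 4.26 on both probe sets.

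A direct comparison of the siRNAs asked which genes separated Stat5a/b from Stat3 knockdown. In DU145 7 of the 13 probe sets were called, 6 higher and 1 lower with Stat5a/b siRNA, where 14.4% of all probe sets were called. AKR1C1 was higher by 1.24 on 204151_x_at (log2, adjusted p = 1.6e-08) and by 1.05 on 216594_x_at (adjusted p = 3.9e-07), AKR1C2 by 1.31 on 209699_x_at (adjusted p = 8.0e-08) and by 1.17 on 211653_x_at (adjusted p = 1.6e-06). AKR1B10 was higher by 1.56, which is 294% of its level with Stat3 siRNA (adjusted p = 6.8e-05). ALDH1A3 on 203180_at was lower, at 46.4% (log2 change -1.11, adjusted p = 2.2e-05). AKR1C3 was higher by 0.67, at 159% (adjusted p = 0.0143), a call lost without Stat3 siRNA replicate 3 or Stat5a/b siRNA replicate 1 or 2 (0.0686, 0.0678 and 0.0635) and in a fit of the DU145 arrays alone (0.0967).

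In CWR22Rv1 only AKR1C1 on 204151_x_at was called between the siRNAs, 1 of the 13 against 6.10% of all probe sets. It was higher with Stat5a/b siRNA by 0.27 on the log2 scale (adjusted p = 0.0436), and the call was lost with the replicate block (0.0632) and whichever of the 6 arrays was left out (adjusted p from 0.0662 to 0.152). The other AKR1C1 and AKR1C2 probe sets gave log2 differences of 0.27, 0.30 and 0.31 (adjusted p from 0.0664 to 0.129). For AKR1C3 the difference was -0.20, with all Stat5a/b siRNA arrays below all Stat3 siRNA arrays (adjusted p = 0.590).

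Whether the lines responded differently was tested as the siRNA effect in CWR22Rv1 minus that in DU145. For Stat5a/b siRNA 3 of the 13 probe sets were called, against 5.49% of all probe sets. The AKR1C1 rise was smaller in CWR22Rv1 by 0.76 ± 0.11 log2 units on 204151_x_at (a difference of -0.76, adjusted p = 8.0e-04) and by 0.50 ± 0.12 on 216594_x_at (a difference of -0.50, adjusted p = 0.0252). The second of these was lost on leaving out any of 6 arrays in turn: DU145 scramble or Stat5a/b siRNA replicate 1, CWR22Rv1 scramble replicate 1 or 2, or CWR22Rv1 Stat5a/b siRNA replicate 1 or 2 (adjusted p from 0.0596 to 0.0667). ALDH1A3 on 203180_at differed by 1.64 ± 0.19 (adjusted p = 1.5e-04), which carries only the DU145 fall: in CWR22Rv1 the probe set lay at 3.68 to 4.26, within the 2.80 to 5.76 of the genes of absent cell types, where a fall of that size could not be read. No difference in response is read from it. For AKR1C2 the differences were -0.43 on 209699_x_at (adjusted p = 0.0727) and -0.28 on 211653_x_at (adjusted p = 0.352), and for AKR1B10 -0.97 ± 0.30 (adjusted p = 0.0677), with CWR22Rv1 values as low, so that a difference between the lines was not shown for these.

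For Stat3 siRNA none of the 13 probe sets was called between the lines by limma, against 0.895% of all probe sets, while 5 had an unadjusted p under 0.05. The widest difference was in AKR1C3, at 1.04 ± 0.24 log2 units (adjusted p = 0.0541), with a log2 change of -0.58 in DU145 and 0.46 in CWR22Rv1. With the replicate block, which assumes a pairing that no label states, AKR1C3 was called between the lines (adjusted p = 0.00126), the only one of the 13. ALDH1A3 on 203180_at differed by 0.69 (adjusted p = 0.0990) and AKR1C2 by 0.59 on 211653_x_at and 0.57 on 209699_x_at (adjusted p = 0.0896 and 0.0526). These lay close to the threshold: without DU145 scramble replicate 3 AKR1C3 and both AKR1C2 probe sets were called (adjusted p = 0.0220, 0.0100 and 0.0257), and without Stat3 siRNA replicate 2 of DU145 AKR1C3 and AKR1C2 on 209699_x_at were (0.0237 and 0.0457).

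The scramble arrays gave the levels of the untargeted lines. Of the 13 probe sets 7 were called, 5 lower and 2 higher in CWR22Rv1, where 47.8% of all probe sets were called. ALDH1A3 was lower in CWR22Rv1: its scramble mean on 203180_at was 11.07 ± 0.0952 in DU145 and 3.93 ± 0.217 in CWR22Rv1 (SD, n = 3), a difference of measured log2 values of -7.14 (limma, adjusted p = 3.2e-17), and on 1558649_at the difference was -1.67 (adjusted p = 2.4e-06). AKR1B10 was lower by 2.14 (a difference of -2.14, adjusted p = 1.1e-07) and AKR1C3 by 1.21 (a difference of -1.21, adjusted p = 1.1e-05). For ALDH1A3 and AKR1B10 the CWR22Rv1 values were no higher than the 2.80 to 5.76 of the genes of absent cell types. The difference on 203180_at is thus at most a lower bound on the gap. On 1558649_at the DU145 scramble arrays, at 4.35 to 5.40, lay within that range too. Those of AKR1B10, at 5.67 to 5.93, lay in or just above it. The size of the gap is not read from these 2 probe sets. AKR1C1 on 204151_x_at was higher in CWR22Rv1 by 0.25 (adjusted p = 0.0112), a call lost without DU145 scramble replicate 3 (0.0712), while on 216594_x_at the difference was 0.19 with overlapping arrays and was not called (adjusted p = 0.0776). Higher too was AKR1C2 on 209699_x_at by 0.30 (adjusted p = 0.0149), lost without that array or CWR22Rv1 scramble replicate 1 (0.0859 and 0.0609). AKR1C2 on 211653_x_at differed by -0.01 (adjusted p = 0.952). ALDH3A1 was lower by 0.47 (a difference of -0.47, adjusted p = 0.0274), a call lost without DU145 scramble replicate 1 or 2, or CWR22Rv1 scramble replicate 3 (0.0781, 0.0750 and 0.105). Its CWR22Rv1 scramble values, 5.15 to 5.40, too were no higher than those of the genes of absent cell types.

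Among 26 measured genes of NRF2, its regulators and its other targets, Stat5a/b siRNA in DU145 raised 12 and lowered 3, where 9.93% and 10.7% of all genes, read by 1 probe set each, rose and fell. The smallest p was that of SRXN1, which restores oxidised peroxiredoxins: 11.07, 10.99 and 11.02 on the DU145 scramble arrays and 12.07, 12.01 and 12.07 with Stat5a/b siRNA, a log2 change of 1.02 ± 0.057 (adjusted p = 1.3e-08). SLC7A11, the cystine importer, rose by 0.74 ± 0.11 (adjusted p = 1.3e-04), OSGIN1 by 0.72 ± 0.11 (adjusted p = 3.0e-04) and HMOX1, haem oxygenase, by 0.99 ± 0.16 (adjusted p = 3.3e-04). NQO1, a classical NRF2 target, was not called, at 12.95, 12.87 and 12.95 with scramble and 12.92, 12.91 and 12.96 with Stat5a/b siRNA. TXNRD1, thioredoxin reductase, read lower on all Stat5a/b siRNA arrays, at 12.55, 12.51 and 12.58, than with scramble, at 12.92, 12.94 and 12.85. In a fit of the DU145 arrays alone 7 of the 26 were called, 6 higher and 1 lower. The share of all genes called in that fit is not given, so this count has no background beside it.

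Stat3 siRNA in DU145 lowered 9 of the same 26 genes and raised 0, against 6.59% and 5.83% of all genes. SLC7A11 fell by 0.60 ± 0.11 on the log2 scale (adjusted p = 0.00136), ME1, the malic enzyme that makes NADPH, by 0.41 ± 0.074 (adjusted p = 0.00155), GCLC, a subunit of the first enzyme of glutathione synthesis, by 0.40 ± 0.072 (adjusted p = 0.00157) and PIR by 0.37 ± 0.070 (adjusted p = 0.00229). With the DU145 arrays alone 4 were called, all lower, again without a share of all genes to set beside it. The list's median log2 change was -0.22 with Stat3 and 0.15 with Stat5a/b siRNA, beside 0.0056 and 0.011 over all genes.

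In CWR22Rv1 Stat5a/b siRNA raised 5 and lowered 3 of the 26, against 1.98% and 2.32% of all genes. NQO1 read 8.82, 8.89 and 8.84 with scramble and 9.74, 9.85 and 9.77 with Stat5a/b siRNA, and rose by 0.94 ± 0.066 (log2, adjusted p = 2.3e-06). FTL, the ferritin light chain, rose by 0.53 ± 0.057 (adjusted p = 4.3e-05) and HMOX1 by 0.97 ± 0.16 (adjusted p = 0.00180), while TXNRD1, thioredoxin reductase, fell by 0.44 ± 0.061 (adjusted p = 5.4e-04). SLC7A11, raised in DU145, fell here by 0.41 ± 0.11 (adjusted p = 0.0432). NFE2L2, the gene of NRF2 itself, rose by 0.49 ± 0.091 in DU145 (adjusted p = 0.00125) and by 0.39 ± 0.091 in CWR22Rv1 (adjusted p = 0.0258). The NFE2L2 calls and the CWR22Rv1 call of SLC7A11 were not followed through the alternatives, such as leaving out single arrays. With Stat3 siRNA in CWR22Rv1 limma called none of the 26, against 2.86% of all genes, and 6 had an unadjusted p under 0.05.

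**Figure D4:**
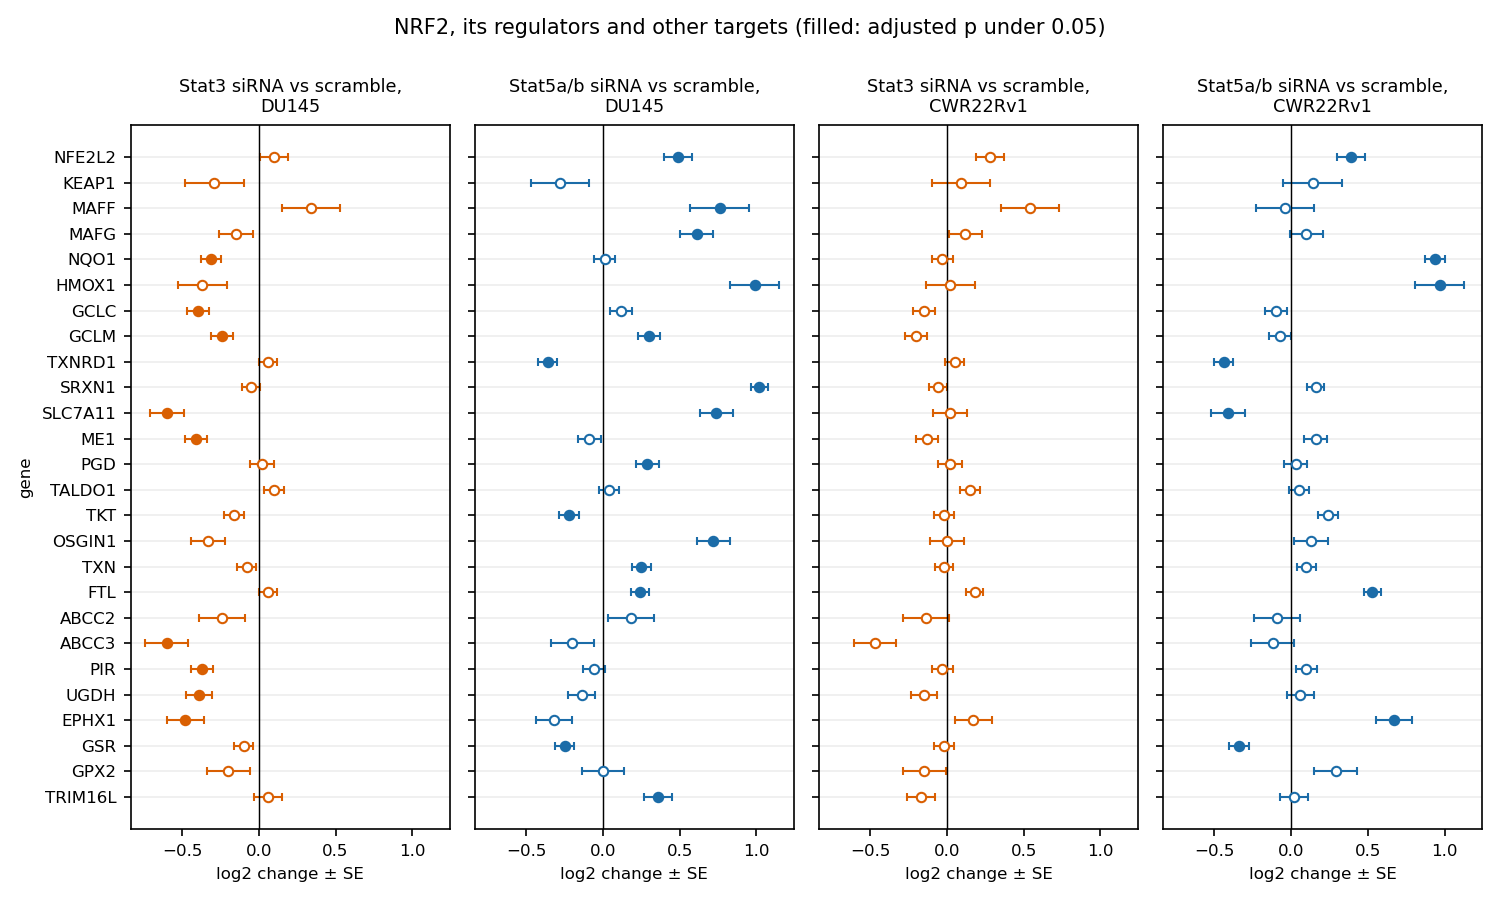
Log2 change against scramble of the 26 measured genes of the NRF2 list, 1 probe set per gene, with the standard error of the fit as bars, in 4 panels for the siRNA and line. Filled points are called (adjusted p under 0.05): 9, all to the left of 0, with Stat3 siRNA in DU145, 15 with Stat5a/b siRNA in DU145, 0 and 8 in CWR22Rv1.

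Of 8 other aldo-keto reductases measured, limma called 0 in each of the 4 siRNA comparisons, and the number with an unadjusted p under 0.05 was 1 for Stat3 and 3 for Stat5a/b siRNA in DU145, and 0 and 2 in CWR22Rv1. With Stat5a/b siRNA in DU145 9.93% of all genes were called higher and 10.7% lower, so few calls among 8 genes would be usual and the 0 is no result about them. Of 17 other aldehyde dehydrogenases Stat5a/b siRNA in DU145 raised 2 and lowered 1, counts not far from those shares of all genes. It raised ALDH8A1 by 1.43 ± 0.17 (log2, adjusted p = 2.4e-05) and ALDH1L2, of mitochondrial folate metabolism, by 1.14 ± 0.16 (adjusted p = 1.1e-04), both from scramble values of at most 4.34. It lowered ALDH16A1 by 0.31 ± 0.093 (adjusted p = 0.0323). Stat3 siRNA in DU145 lowered 2 of the 17, against 6.59% of all genes. ALDH5A1, of GABA breakdown, fell by 0.42 ± 0.083 (adjusted p = 0.00311) and ALDH18A1 by 0.22 ± 0.062 (adjusted p = 0.0359). In CWR22Rv1 Stat5a/b siRNA lowered 2, against 2.32% of all genes. ALDH1A1, another retinaldehyde dehydrogenase, commonly used as a stem cell marker, fell by 0.68 ± 0.14 (adjusted p = 0.0124). Its values there, 4.54 to 5.48, lay within the 2.80 to 5.76 of the genes of absent cell types. ALDH7A1 fell by 0.25 ± 0.064 (adjusted p = 0.0437). With Stat3 siRNA in CWR22Rv1 limma called 0 of 17, with 1 at an unadjusted p under 0.05. There 2.86% of all genes were called, so this 0 is no result about the list either. Leaving out 1 array ended the call of ALDH16A1 (without scramble replicate 1 or 3, or Stat5a/b siRNA replicate 1 or 2, adjusted p from 0.0566 to 0.139), of ALDH18A1 (any array but Stat3 siRNA replicate 2, 0.0505 to 0.116), of ALDH1A1 (scramble replicate 1 or 3, or Stat5a/b siRNA replicate 1, 0.0626 to 0.0738) and of ALDH7A1 (any array but scramble replicate 2, 0.0774 to 0.206).

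Of 20 measured genes of retinoid metabolism, binding and receptors, Stat5a/b siRNA raised 1 in each line, against 9.93% of all genes in DU145 and 1.98% in CWR22Rv1, counts near the background. In both it was RDH10, which oxidises retinol to the retinaldehyde that AKR1B10 and ALDH1A3 use. RDH10 read 7.78, 7.96 and 8.02 with scramble and 8.67, 8.75 and 8.97 with Stat5a/b siRNA in DU145, with no overlap, and rose by 0.88 ± 0.084 (log2, adjusted p = 2.4e-06). In CWR22Rv1 RDH10 rose by 0.38 ± 0.084 (adjusted p = 0.0159), a call lost without any array but Stat5a/b siRNA replicate 1 (adjusted p from 0.0515 to 0.0746). With Stat3 siRNA in DU145 CYP26A1, which breaks down retinoic acid, fell by 0.58 ± 0.17 (adjusted p = 0.0476) and RXRA, a retinoid X receptor, rose by 0.35 ± 0.082 (adjusted p = 0.0111). CYP26A1 read 5.78, 5.36 and 5.46 with scramble and 5.01, 5.11 and 4.74 with Stat3 siRNA. These values lay in or just above the 2.80 to 5.76 of the genes of absent cell types. In CWR22Rv1 FABP5 fell by 0.28 ± 0.066 with Stat3 siRNA (adjusted p = 0.0398). The CYP26A1 and FABP5 calls were lost whichever array was left out (adjusted p from 0.0517 to 0.196 and from 0.0921 to 0.170), and that of RXRA without DU145 scramble replicate 2 (adjusted p = 0.0564).

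Of 29 measured steroid hormone enzymes SRD5A1, which makes the dihydrotestosterone that AKR1C2 inactivates, rose in all 4 siRNA comparisons. It read 8.48, 8.56 and 8.58 with scramble, 9.15, 9.37 and 9.39 with Stat3 siRNA and 9.49, 9.54 and 9.72 with Stat5a/b siRNA in DU145. In CWR22Rv1 it read 8.83, 8.75 and 8.68, then 9.17, 9.07 and 9.22, then 9.21, 9.10 and 9.20. The siRNA arrays lay above the scramble arrays throughout. The log2 rises were 0.77 and 1.04 ± 0.084 in DU145 for the Stat3 and the Stat5a/b siRNA (adjusted p = 1.4e-05 and 3.7e-07) and 0.40 and 0.42 ± 0.084 in CWR22Rv1 (adjusted p = 0.0180 and 0.00900). The CWR22Rv1 calls of SRD5A1 were lost without scramble replicate 3 (adjusted p = 0.107 and 0.0593), and that with Stat3 siRNA also without scramble replicate 2 or Stat3 siRNA replicate 1 or 3 (0.0717, 0.0789 and 0.0963).

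Further steroid enzymes changed in DU145 alone by call, the difference between lines not being tested for them. Under Stat5a/b siRNA CYP1B1 rose by 0.88 ± 0.096 (log2, adjusted p = 9.4e-06) and HSD17B8 by 0.60 ± 0.14 (adjusted p = 0.00757), while HSD17B7 fell by 0.55 ± 0.083 (adjusted p = 2.1e-04) and HSD17B4 by 0.42 ± 0.066 (adjusted p = 3.3e-04). With Stat3 siRNA HSD17B1, which makes estradiol, rose by 0.35 ± 0.066 (adjusted p = 0.00220) and UGT2B28, which conjugates androgens, by 0.58 ± 0.13 (adjusted p = 0.00938). The UGT2B28 values of these groups, 4.19 to 4.97, lay within the 2.80 to 5.76 of the genes of absent cell types. In DU145 Stat5a/b siRNA raised 3 of the 29 and lowered 2, against 9.93% and 10.7% of all genes. The steroid enzyme count with Stat3 siRNA in DU145 was 3, all higher, against 5.83% of all genes, and moved to 5 with the replicate block, with dim probe sets left out or with 1 probe set per gene, and to 7 with an intensity trend.

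Of 17 prostaglandin genes, on whose products AKR1C3 acts, Stat3 siRNA in DU145 raised 1 and lowered 3, against 5.83% and 6.59% of all genes. Stat5a/b siRNA raised 1 and lowered 4, against 9.93% and 10.7%. PTGES, the inducible prostaglandin E synthase, read 10.37, 10.46 and 10.01 with scramble, 9.33, 9.36 and 8.97 with Stat3 siRNA and 9.32, 9.34 and 8.85 with Stat5a/b siRNA. All siRNA arrays lay below all scramble arrays, and PTGES fell by 1.06 ± 0.14 and 1.11 ± 0.14 on the log2 scale (adjusted p = 7.8e-05 and 3.2e-05). The receptor PTGER4 fell by 0.49 and 0.70 ± 0.13 with Stat3 and Stat5a/b siRNA (adjusted p = 0.0280 and 0.00162), the first of these being lost without scramble replicate 2 or 3, or Stat3 siRNA replicate 1 or 3 (0.0548 to 0.120), and the receptor PTGER2 rose by 1.10 ± 0.20 with Stat3 siRNA (adjusted p = 0.00144). PTGER2 read 4.02, 4.47 and 4.27 with scramble and 5.79, 5.05 and 5.23 with Stat3 siRNA. These values lay in or just above the 2.80 to 5.76 of the genes of absent cell types. PTGES3 fell by 0.48 ± 0.055 with Stat3 siRNA (adjusted p = 2.5e-05). Under Stat5a/b siRNA ABCC4, a prostaglandin exporter, fell by 0.56 ± 0.093 (adjusted p = 4.8e-04) and PTGES2 by 0.39 ± 0.090 (adjusted p = 0.00685), while PTGR1, which reduces prostaglandin and leukotriene products, rose by 0.32 ± 0.070 (adjusted p = 0.00507). In CWR22Rv1 PTGES3 and ABCC4 fell with Stat3 siRNA, by 0.35 ± 0.055 and 0.55 ± 0.093 (adjusted p = 0.00272 and 0.00404), and PTGR1 fell with Stat5a/b siRNA by 0.27 ± 0.070 (adjusted p = 0.0490), a call lost with the replicate block (0.0550) and without any array but Stat5a/b siRNA replicate 2 (0.0873 to 0.244).

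Of 14 measured genes of other carbonyl reducers and the polyol pathway, Stat3 siRNA in DU145 lowered 5 and raised 0, against 6.59% and 5.83% of all genes. GLO1, glyoxalase 1, fell most, from 11.93, 11.91 and 11.96 with scramble to 10.79, 10.58 and 10.65, a log2 change of -1.26 ± 0.065 (adjusted p = 9.4e-09). It fell in CWR22Rv1 also, from 12.09, 12.07 and 12.02 to 11.25, 11.23 and 11.16, by 0.85 ± 0.065 (adjusted p = 2.1e-06), and was not called with Stat5a/b siRNA in either line. The carbonyl reductase CBR1 fell by 0.34 ± 0.071 with Stat3 siRNA in DU145 (adjusted p = 0.00516), DHRS7 by 0.32 ± 0.064 (adjusted p = 0.00388), NQO2 by 0.31 ± 0.065 (adjusted p = 0.00566) and NQO1 by 0.31 ± 0.066 (adjusted p = 0.00681). In a fit of the DU145 arrays alone 1 of the 14 was called with Stat3 siRNA, and the share of all genes in that fit is not given. NQO1 stands in the NRF2 list too. Under Stat5a/b siRNA in DU145 CBR3 rose by 0.43 ± 0.083 (adjusted p = 0.00172) and NQO2 fell by 0.28 ± 0.065 (adjusted p = 0.00659). In CWR22Rv1 GLO1 with Stat3 siRNA and NQO1 with Stat5a/b siRNA were the only calls among the 14.

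The list medians stayed within 0.15 log2 units of 0, except for the NRF2 list with Stat3 siRNA in DU145. Over the 4 siRNA comparisons they ran from 0.0030 to 0.11 for the other aldo-keto reductases, from -0.099 to 0.12 for the other aldehyde dehydrogenases, from -0.026 to 0.12 for the retinoid genes and from -0.051 to 0.067 for the steroid enzymes. They ran from -0.12 to 0.0038 for the prostaglandin genes and from -0.14 to 0.11 for the carbonyl reducers, beside -0.0042 to 0.024 over all genes. In fits of the DU145 arrays alone the Stat3 siRNA calls of ALDH5A1, HSD17B1, RXRA and PIR were lost as well (adjusted p = 0.0517, 0.0587, 0.0639 and 0.0613), and without the DU145 arrays numbered 3 so was that of UGT2B28 (0.106).

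The genes whose pattern was most like AKR1C1 (204151_x_at) over the 18 arrays, after the mean of each line was subtracted, were SRXN1 (Pearson's r = 0.974), RNF135 (0.971), ZNF107 (0.964), TXNIP (0.964) and MSX1 (0.958). With Stat5a/b siRNA their log2 changes in DU145 were 1.02, 0.63, 1.23, 2.24 and 1.02, and in CWR22Rv1 0.16, 0.26, 0.17, 0.36 and 0.27. Most like ALDH1A3 (203180_at) were VEGFC (0.956), COL12A1 (0.946), MPRIP (0.942), GPC1 (0.940) and VAMP8 (0.936), with log2 changes of -1.19, -1.48, -0.68, -1.21 and -0.84 with Stat5a/b siRNA in DU145. The correlations are a description: the arrays share groups, hybridisation and normalisation, and the genes were picked from 19775 for the highest value.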

How the data were processed

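The authors deposited log2 expression values of probe sets made with RMA (background correction, quantile normalisation and probe summary), per the submitters' processing notes, which also list limma. Versions are not given in the sources used here. Of 54675 probe sets 62 controls were left out. The annotation table gave 1 symbol to 41091 of the rest, several to 1801 and none to 11721. It is the source of all gene names. Old or unlisted names were not looked for.

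A linear model with 6 group means was fitted to the 54613 probe sets on 18 arrays with limma 3.58.1 in R 4.3.3 (lmFit, eBayes, two-sided tests; residual degrees of freedom 12, prior 4.49). The number after ± is the standard error of a log2 change in this fit, unless SD is named. The error pools the spread of all 6 groups, and DU145 arrays were the more spread (median SD 0.126 to 0.139 by group, against 0.0869 to 0.0985), so this error tends to understate the spread in DU145 and to overstate it in CWR22Rv1. A percentage of control is the log2 change taken back to the linear scale. Probe sets differ in brightness, so levels were not compared between them, nor could they be set per length. Dim probe sets stayed in. No 2 arrays held identical values. The script was tested on simulated data.

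All probe sets of the listed genes were read. List genes were read by their brightest single-symbol probe set over the 18 arrays, and the rule named up to 4 called genes per list and comparison by smallest adjusted p. Outside it, NFE2L2, SLC7A11 in CWR22Rv1, NQO1 and TXNRD1 in DU145, PTGES2 and HSD17B8 were named after their values were seen. Their single calls were not followed through the alternatives. The genes and lists were chosen with earlier results of these data known. Of the listed genes 6 had a RefSeq promoter entry. Same-numbered scramble and Stat3 siRNA arrays of DU145 deviated together (r = 0.137, 0.187 and 0.39), a pairing that rests on these correlations, as the labels state none, and number 1 correlated as well with another (0.142). Alternatives were a replicate block, further normalisation, filters on probe sets, an intensity trend, fits by line and leaving out arrays.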

Additional observations from a re-analysis of the deposited data

Results flagged for a closer look

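Results with a difference between the lines that was itself called are given here. The Stat5a/b siRNA effect on AKR1C1 differed between CWR22Rv1 and DU145 by -0.76 on 204151_x_at (log2, SE 0.11, limma adjusted p = 8.0e-04) and by -0.50 on 216594_x_at (SE 0.12, adjusted p = 0.0252). It was 1.13 and 0.91 in DU145 and 0.36 and 0.41 in CWR22Rv1. The effect on ALDH1A3 (203180_at) differed by 1.64 (SE 0.19, adjusted p = 1.5e-04), with array values of 9.36 to 11.17 in DU145 and 3.68 to 4.26 in CWR22Rv1. The latter lie within the 2.80 to 5.76 of genes of absent cell types, where a fall could not be read, so no difference in response is read from it. STAT5B stood at 39.1% of control in DU145 and at 53.4% in CWR22Rv1, and the part of this in the differences was not tested. Groups of 3 arrays were not searched for outlying arrays.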

How the results depend on the processing

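The numbers of called probe sets (of 13) with Stat5a/b siRNA in DU145, between the siRNAs in DU145, between the lines for Stat5a/b siRNA and between the scramble arrays stayed within 1.5 times under every alternative except single arrays left out. The shares of all probe sets called under the alternatives are not given. With Stat3 siRNA in DU145 the number was 3, and 1 with the DU145 arrays alone. With Stat3 siRNA in CWR22Rv1 it was 0, and 1 with the replicate block, 1 with only probe sets of a mean of at least 5, and 2 with the line's arrays alone. With Stat5a/b siRNA in CWR22Rv1 it was 4, and 2 with 1 probe set per gene, where 6 entered. Between the siRNAs in CWR22Rv1 it was 1, and 0 with the replicate block, 2 with quantile normalisation, 2 with cyclic loess, 3 with the mean of at least 5, 2 with an intensity trend and robust estimation, and 4 with the line's arrays alone. Between the lines for Stat3 siRNA it was 0, and 1 with the replicate block, 3 with the mean of at least 5, 2 with single-symbol probe sets, 2 with 1 probe set per gene, 4 with the intensity trend, and 3 without the DU145 arrays numbered 3, an alternative chosen after seeing the data.

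With single arrays left out the numbers ranged from 0 to 3 (Stat3 siRNA, DU145; lowest without scramble replicate 1 or Stat3 siRNA replicate 3), 6 to 7 (Stat5a/b, DU145), 0 each time (Stat3, CWR22Rv1), 1 to 4 (Stat5a/b, CWR22Rv1; lowest without scramble replicate 3), 6 to 7 and 0 each time (between siRNAs, DU145 and CWR22Rv1), 0 to 3 and 2 to 5 (between lines, Stat3 and Stat5a/b; highest without DU145 scramble replicate 3 and 2) and 6 to 7 (scramble arrays). Uncalled changes that turned sign were AKR1C2 211653_x_at between scramble arrays (0.034 with quantile normalisation, -0.16 to 0.11 with an array left out), ALDH3A1 with Stat3 siRNA in DU145 (-0.23 to 0.031), AKR1C3 with Stat5a/b siRNA in DU145 (-0.083 to 0.26) and its difference between lines (-0.0046 to 0.34). The causes were not tested. No further normalisation moved the median of all probe sets by over 0.1.

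Correlations of same-numbered arrays were highest between scramble and Stat3 siRNA in DU145 (r = 0.137, 0.187 and 0.39). Between scramble and either siRNA in CWR22Rv1 the own number correlated best each time, but at 0.0245 to 0.0876. Whether those arrays were paired is not settled. Over all groups same-numbered deviations correlated at -0.00489 to 0.39 in DU145, 5 of 9 pairs over 0.1, and at -0.104 to 0.0876 in CWR22Rv1, 0 of 9. In 5 and 6 of the 9 pairs the own number correlated best. With the replicate block AKR1C3 was called with Stat3 siRNA in CWR22Rv1 (0.46, adjusted p = 0.00727) and between the lines (1.04, adjusted p = 0.00126), and AKR1C1 204151_x_at was not between siRNAs in CWR22Rv1 (0.27, adjusted p = 0.0632). No block could be fitted to the scramble difference between lines. The small number of arrays limits all calls, and signal over background is unknown.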
